A study of Mus musculus with 16 samples.

Results

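The glucocorticoid receptor gene Nr3c1 and 5 genes around it, Hsd11b1, Fkbp5, Tsc22d3, Zbtb16 and Sgk1, were followed in mouse adipose progenitors given the β-adrenergic agonist isoproterenol. The 6 genes were taken by symbol from a deposited table of 27179 gene entries in 16 RNA-seq libraries. Each symbol matched 1 entry, and all 6 were among the 14005 genes tested.

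The progenitors were stromal cells of C57BL/6 mice, sorted from adipose tissue for PDGFRb, a receptor of stromal and mural cells, and split by the surface peptidase DPP4. After culture in medium with 10% serum they received isoproterenol at 10 mM, as the labels write the dose, or PBS as vehicle, and RNA was taken after 4 h. The 4 groups of 4 libraries were DPP4_pos cells with isoproterenol, DPP4_pos cells with vehicle, DPP4_neg cells with isoproterenol and DPP4_neg cells with vehicle. The labels name no added glucocorticoid in any group, so the comparisons concern these genes under isoproterenol and between the populations, not a response to the hormone. The labels give neither the age nor the sex of the mice, and they do not say whether the 4 libraries of a group came from separate mice or cultures. The p-values therefore measure the spread between libraries, which may be technical.

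The glucocorticoid receptor is a hormone-bound transcription factor that waits in the cytoplasm in a complex with HSP90 and moves to the nucleus when it binds corticosterone, the main glucocorticoid of mice. There it raises genes through palindromic DNA elements and lowers many inflammatory genes by acting on other factors. In fat, glucocorticoids promote the differentiation of preadipocytes, and isoproterenol acts through β-adrenergic receptors and cyclic AMP (cAMP), whose factor CREB binds its own element in a partly shared set of genes.

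Promoter windows are shown first because 2 of the 6 genes carry, just upstream of an annotated start, letters that receptor or CREB elements are made of. RefSeq windows from 250 bases upstream to 50 bases downstream of starts (GRCm38.p6) were matched for 4 of the 6 genes, in 11 windows: Sgk1, Tsc22d3, Fkbp5 and Hsd11b1. Nr3c1 and Zbtb16 had no window. Both strands were searched for the full receptor element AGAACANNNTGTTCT, for 1 arm of it, TGTTCT, for the full cAMP element TGACGTCA and for its core TGACG; each arm or core also lies inside its full element. The 4 windows below run 5′ to 3′ along the gene's strand, and capitals mark a match.
Sgk1, chr10:21993640-21993889, plus strand: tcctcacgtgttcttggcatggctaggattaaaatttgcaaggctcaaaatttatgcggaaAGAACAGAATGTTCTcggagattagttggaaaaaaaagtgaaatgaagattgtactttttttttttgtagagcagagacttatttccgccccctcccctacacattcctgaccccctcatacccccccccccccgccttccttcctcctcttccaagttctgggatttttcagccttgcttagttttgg
Sgk1, chr10:21978422-21978671, plus strand: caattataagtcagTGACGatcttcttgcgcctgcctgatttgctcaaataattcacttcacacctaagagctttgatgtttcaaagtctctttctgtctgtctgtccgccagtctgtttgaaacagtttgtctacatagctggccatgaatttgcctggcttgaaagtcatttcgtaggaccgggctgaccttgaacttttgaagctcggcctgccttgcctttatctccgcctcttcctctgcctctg
Tsc22d3, chrX:140548572-140548821, minus strand: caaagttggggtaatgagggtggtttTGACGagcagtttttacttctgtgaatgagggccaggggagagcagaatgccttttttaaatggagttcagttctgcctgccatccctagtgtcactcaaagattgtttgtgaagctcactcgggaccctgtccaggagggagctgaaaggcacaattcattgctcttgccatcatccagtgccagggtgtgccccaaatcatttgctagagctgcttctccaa
Fkbp5, chr17:28486150-28486399, minus strand: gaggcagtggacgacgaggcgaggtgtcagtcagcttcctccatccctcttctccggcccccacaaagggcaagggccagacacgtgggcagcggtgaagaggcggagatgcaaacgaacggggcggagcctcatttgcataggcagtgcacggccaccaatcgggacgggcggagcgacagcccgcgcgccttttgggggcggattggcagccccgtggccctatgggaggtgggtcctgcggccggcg

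The first Sgk1 window held the full receptor element, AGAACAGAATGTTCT, whose first base lay at position -189 from the start at 21993890; a further single arm, not in capitals, began at -242. That full element was rare: it stood in 3 of 32851 windows of all genes (0.00913%). The second Sgk1 window and the Tsc22d3 window held the cAMP core TGACG, at -236 and -224, and 20.8% of all windows held it. Single receptor arms also stood in 2 further Sgk1 windows, at -195 and -13, and in 1 further Tsc22d3 window, at -185, against 19.0% of all windows. The Fkbp5 window, shown for contrast, and that of Hsd11b1 held none of the 4 letter strings, and the full cAMP element (1.79% of all windows) stood in none of the 11. The upstream 250 bases of the Hsd11b1 window (chr1:193242361-193242610, minus strand) lie wholly in annotated exon inside the gene. The 5′ end of Hsd11b1 had no window. A match is a run of letters, not a measured site, and the gene counts do not tell which Sgk1 start was used.

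Within the groups the 6 genes spanned a wide range of abundance. Values below are counts that the authors normalized for library size, and a level is given per kilobase of annotated exon where genes are set against each other. On that per-kilobase scale the mean level in DPP4_pos vehicle cells was highest for Nr3c1 at 522.8, followed by Sgk1 at 129.6, Hsd11b1 at 95.8, Tsc22d3 at 95.5, Fkbp5 at 54.2 and Zbtb16 at 44.5. In DPP4_neg isoproterenol cells Sgk1 came first at 330.0 per kilobase, ahead of Nr3c1 at 146.1, and Zbtb16 was last at 5.79.

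Differences were tested with limma over all 14005 genes on log2(normalized count + 1), and a gene was called at an adjusted p under 0.05 (Benjamini-Hochberg). This scale understates the change of low genes. Isoproterenol left 1 of the 6 genes higher and 3 lower in each population. In DPP4_pos cells 39.4% of all tested genes were called higher and 43.3% lower, and in DPP4_neg cells 32.1% and 33.6%, so a called change was common and counts of calls among 6 genes carry little weight. The sizes and patterns of the single genes are described instead, in the order receptor, hormone supply, and targets.

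Nr3c1, on chromosome 18, had 1275.2, 1188.2, 1274.3 and 1054.2 normalized counts in DPP4_pos isoproterenol libraries, against 4036.6, 4047.9, 4058.1 and 3926.8 in DPP4_pos vehicle libraries. In DPP4_neg cells the values were 1137.0, 1067.5, 1175.2 and 1110.4 with isoproterenol, against 2458.4, 2535.3, 2546.5 and 2324.9 with vehicle. Every isoproterenol library lay below every vehicle library of either population, and the DPP4_pos vehicle libraries stood above all others.

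Receptor mRNA thus fell 3.36-fold with isoproterenol in DPP4_pos cells (log2 -1.75 ± 0.05 standard error, limma adjusted p = 1.69e-18). The fall in DPP4_neg cells was 2.20-fold (log2 -1.13 ± 0.05, limma adjusted p = 9.0e-15). Of all tested genes, 7.88% fell at least as far in DPP4_pos cells and 7.41% in DPP4_neg cells. The fall was larger in DPP4_pos cells by log2 -0.61 ± 0.07 (test of the difference of responses, limma adjusted p = 1.47e-07).

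With vehicle, Nr3c1 was 1.63-fold higher in DPP4_pos than in DPP4_neg cells, at 4017 ± 61.0 and 2466 ± 102 normalized counts (SD, n = 4 each; limma adjusted p = 3.87e-11). With isoproterenol the means were 1198 ± 104 and 1123 ± 45.3, and the libraries overlapped. That difference, log2 0.09 ± 0.05, was not called (limma adjusted p = 0.106), but without the fourth DPP4_pos isoproterenol library, the lowest of its group, it was 0.15 with adjusted p = 0.00316. The order of groups, low to high, was DPP4_neg isoproterenol, DPP4_pos isoproterenol, DPP4_neg vehicle and DPP4_pos vehicle, with the first pair not separated.

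**Figure D1:**
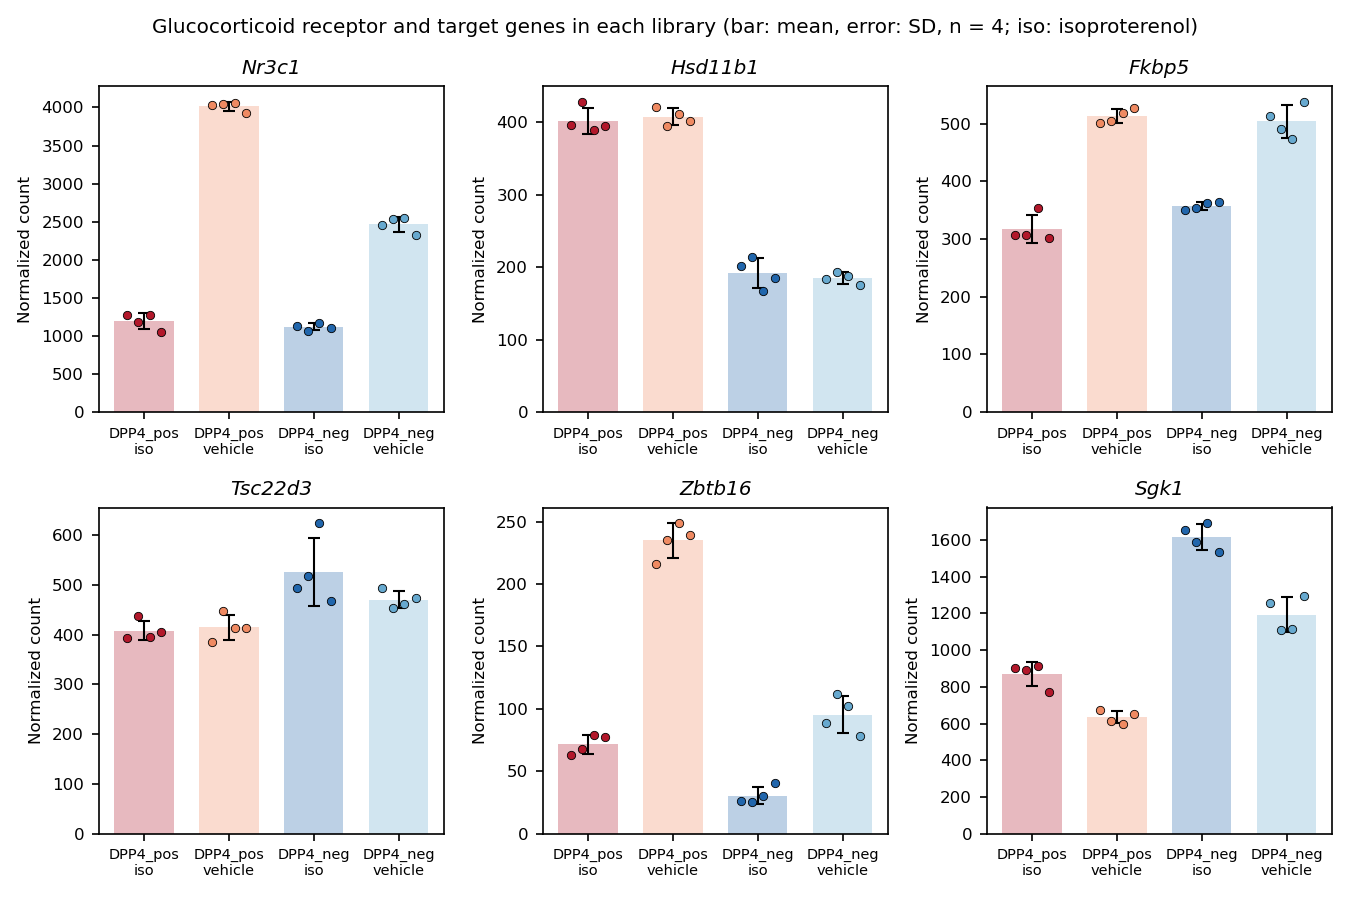
Normalized counts (linear axis from 0) of the 6 genes in each of 4 groups; points are libraries, bars means and error bars SD (n = 4). Nr3c1, Fkbp5 and Zbtb16 stand lower with isoproterenol in both populations, Sgk1 stands higher, and Hsd11b1 and Tsc22d3 show mainly the populations.

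Hsd11b1 (chr1:193221640-193264045, minus strand) encodes the enzyme that regenerates active corticosterone from its inert form inside the cell. Its normalized counts were 396.6, 428.6, 388.7 and 394.6 in DPP4_pos isoproterenol libraries, and 421.2, 394.6, 411.8 and 402.1 in DPP4_pos vehicle libraries. DPP4_neg isoproterenol libraries had 201.6, 213.6, 167.2 and 185.1, and DPP4_neg vehicle libraries 183.8, 193.8, 188.2 and 175.2. The 8 DPP4_pos libraries all lay above the 8 DPP4_neg libraries, while treated and vehicle libraries of a population overlapped.

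The enzyme's mRNA was 2.10-fold higher in DPP4_pos than in DPP4_neg cells with isoproterenol (log2 1.07 ± 0.07, limma adjusted p = 7.46e-12). With vehicle it was 2.19-fold higher (log2 1.13 ± 0.07, limma adjusted p = 3.26e-12). No change with isoproterenol was called: log2 -0.02 ± 0.07 in DPP4_pos cells (adjusted p = 0.802) and 0.05 ± 0.07 in DPP4_neg cells (adjusted p = 0.581, limma). Under quantile normalization the DPP4_neg value was 0.16 and was called (adjusted p = 0.0412).

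Fkbp5 (chr17:28398753-28486149, minus strand) encodes an HSP90 cochaperone that lowers the receptor's affinity for hormone and is itself a classical induced target. It had 307.9, 306.6, 353.7 and 302.5 normalized counts in DPP4_pos isoproterenol libraries, against 501.9, 505.3, 519.0 and 527.2 in DPP4_pos vehicle libraries. In DPP4_neg cells it had 350.7, 353.1, 362.8 and 363.6 with isoproterenol, against 513.9, 490.7, 473.8 and 538.6 with vehicle. The 8 isoproterenol libraries lay below the 8 vehicle libraries, and the populations overlapped in both treatments.

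Fkbp5 fell in DPP4_pos cells (log2 -0.69 ± 0.06, limma adjusted p = 1.73e-10) and in DPP4_neg cells (log2 -0.49 ± 0.06, limma adjusted p = 9.22e-08). The larger fall in DPP4_pos cells was called only narrowly (difference -0.20 ± 0.08, limma adjusted p = 0.0333). It was lost when any 1 of 8 of the 16 libraries was left out: DPP4_neg isoproterenol 4, DPP4_neg vehicle 2 or 3, DPP4_pos isoproterenol 1, 2 or 4, and DPP4_pos vehicle 3 or 4 (adjusted p up to 0.0796). DESeq2 on the recovered reads did not call it either (adjusted p = 0.0797).

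Between the populations, Fkbp5 was lower in DPP4_pos than in DPP4_neg cells with isoproterenol by log2 -0.17 ± 0.06 (limma adjusted p = 0.00857), although the third DPP4_pos library, at 353.7, lay among the DPP4_neg values; DESeq2 gave -0.16 with adjusted p = 0.0507. With vehicle the difference was 0.03 ± 0.06 and was not called (limma adjusted p = 0.686).

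Tsc22d3 (chrX:140539528-140600522, minus strand) encodes GILZ, a leucine-zipper protein that glucocorticoids induce in many cells and that restrains adipogenic differentiation. Its normalized counts were 394.4, 437.3, 396.0 and 405.9 in DPP4_pos isoproterenol libraries, and 385.4, 447.4, 412.7 and 413.1 in DPP4_pos vehicle libraries. DPP4_neg isoproterenol libraries had 494.8, 518.3, 624.7 and 467.3, and DPP4_neg vehicle libraries 494.9, 453.7, 461.5 and 473.0. Treated and vehicle libraries overlapped in both populations, and the third DPP4_neg isoproterenol library was the highest of the 16.

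Tsc22d3 did not pass the test with isoproterenol in DPP4_pos cells (log2 -0.02 ± 0.07, limma adjusted p = 0.791) or DPP4_neg cells (log2 0.15 ± 0.07, limma adjusted p = 0.0661). The DPP4_neg value was near the threshold: edgeR on the recovered reads gave 0.16 and quantile normalization 0.17, both called, and so did leaving out the first (0.18) or the fourth (0.21) DPP4_neg isoproterenol library. The test of the difference of responses gave -0.17 ± 0.10 (limma adjusted p = 0.141), and edgeR called it at -0.23 (adjusted p = 0.0495).

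The populations differed for Tsc22d3 with isoproterenol, where it was lower in DPP4_pos than in DPP4_neg cells, at 408.4 ± 19.9 and 526.3 ± 68.8 (SD, n = 4 each; log2 -0.36 ± 0.07, limma adjusted p = 0.000122). With vehicle it was also lower, at 414.6 ± 25.4 and 470.8 ± 17.9 (log2 -0.18 ± 0.07, limma adjusted p = 0.0281). That call was lost without DPP4_pos vehicle library 1, 3 or 4 or without DPP4_neg vehicle library 1 or 4 (adjusted p 0.0510 to 0.0942).

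Zbtb16 (chr9:48651797-48836225, minus strand) encodes PLZF, a zinc-finger repressor that glucocorticoids strongly induce in many cell types. It had 62.9, 67.9, 78.9 and 77.0 normalized counts in DPP4_pos isoproterenol libraries, against 216.0, 235.6, 248.9 and 239.1 in DPP4_pos vehicle libraries. In DPP4_neg cells it had 25.9, 25.7, 30.0 and 40.7 with isoproterenol, against 88.5, 112.0, 102.5 and 78.5 with vehicle. Each treated group lay wholly below its vehicle group, and DPP4_pos wholly above DPP4_neg within a treatment.

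Of the 6 genes Zbtb16 had the fewest reads, from 19 to 35 a library in DPP4_neg isoproterenol cells and from 241 to 317 in DPP4_pos vehicle cells. It fell 3.25-fold with isoproterenol in DPP4_pos cells (log2 -1.70 ± 0.14, limma adjusted p = 2.45e-10) and 3.08-fold in DPP4_neg cells (log2 -1.62 ± 0.14, limma adjusted p = 1.23e-09). Of all tested genes, 8.33% fell at least as far in DPP4_pos cells and 3.90% in DPP4_neg cells. The responses did not differ detectably (-0.08 ± 0.20, limma adjusted p = 0.742).

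The excess of Zbtb16 in DPP4_pos over DPP4_neg cells was 2.33-fold with isoproterenol (log2 1.22 ± 0.14, limma adjusted p = 8.01e-08). It was 2.47-fold with vehicle (log2 1.30 ± 0.14, limma adjusted p = 3.97e-08). In the order of groups, DPP4_neg isoproterenol was lowest and DPP4_pos vehicle highest, while DPP4_pos isoproterenol and DPP4_neg vehicle overlapped between them.

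Sgk1 (chr10:21882184-21999903, plus strand) encodes a kinase of ion transport and survival that serum, glucocorticoids and cAMP can all induce. It had 900.0, 892.0, 914.8 and 772.3 normalized counts in DPP4_pos isoproterenol libraries, against 674.0, 616.1, 597.8 and 653.1 in DPP4_pos vehicle libraries. DPP4_neg libraries had 1654.5, 1590.9, 1692.6 and 1533.1 with isoproterenol, against 1255.1, 1109.9, 1116.7 and 1293.0 with vehicle. None of the 4 groups overlapped another: DPP4_pos vehicle was lowest, then DPP4_pos isoproterenol, DPP4_neg vehicle and DPP4_neg isoproterenol.

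Sgk1 was the 1 gene of the 6 that rose with isoproterenol, 1.37-fold in DPP4_pos cells (log2 0.45 ± 0.06, limma adjusted p = 4.38e-07) and 1.36-fold in DPP4_neg cells (log2 0.44 ± 0.06, limma adjusted p = 1.16e-06). The responses differed by 0.01 ± 0.08, which was not called (limma adjusted p = 0.922). The population difference was larger and ran the other way from Zbtb16 and Hsd11b1: DPP4_pos cells had 1.86-fold less Sgk1 than DPP4_neg cells with isoproterenol (log2 -0.90 ± 0.06) and 1.88-fold less with vehicle (log2 -0.91 ± 0.06, limma adjusted p = 1.03e-11 for each).

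**Figure D2:**
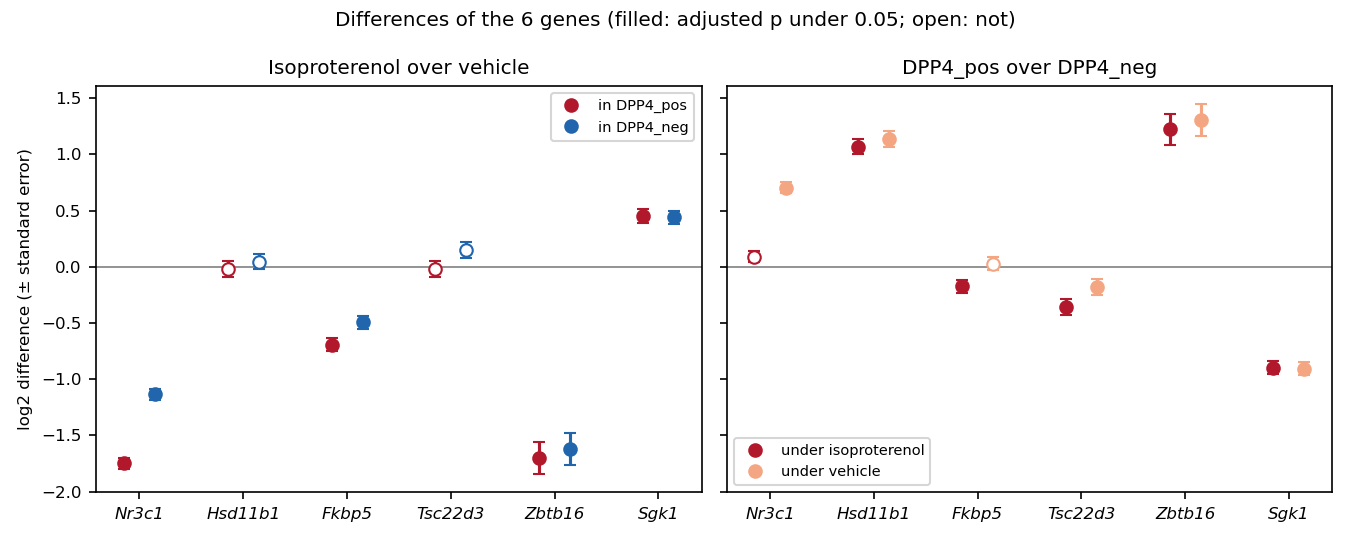
Log2 differences (± standard error from limma) of the 6 genes; left, isoproterenol over vehicle in DPP4_pos (red) and DPP4_neg (blue) cells; right, DPP4_pos over DPP4_neg with isoproterenol (red) or vehicle (orange). On the left the Nr3c1 responses are -1.75 and -1.13, and on the right its excess of 0.70 with vehicle is 0.09 with isoproterenol.

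Between the populations, 2 of the 6 genes were higher and 3 lower in DPP4_pos cells with isoproterenol, against 37.4% and 37.0% of all tested genes. With vehicle 3 were higher and 2 lower, against 31.6% and 35.0%. The test of the difference of responses called 0 of 6 higher and 2 lower in DPP4_pos cells, Nr3c1 and Fkbp5, where 31.6% of all tested genes were called higher and 31.0% lower.

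The libraries held 9823799 to 28627223 reads in genes, and the DPP4_pos isoproterenol group was shallowest, at 9823799 to 16563940. The cells carried the markers of PDGFRb+ stroma: 8 of 8 were tested and none was at 0 in a group. With isoproterenol 0 rose and 6 fell in DPP4_pos cells, where 43.3% of all tested genes fell. In DPP4_neg cells 2 rose and 2 fell. The difference of responses was called higher for 0 and lower for 7, against 31.0% of all tested genes lower. Their sums were 292332 to 298822 in DPP4_pos isoproterenol and 364117 to 376414 in DPP4_pos vehicle libraries. Dpp4, the gene of the sorting marker, had 2223 ± 97.7 normalized counts in DPP4_pos isoproterenol and 3053 ± 186 in DPP4_pos vehicle cells, and 9.89 ± 2.29 in DPP4_neg isoproterenol and 21.1 ± 4.16 in DPP4_neg vehicle cells (SD, n = 4 each). The 5 markers of DPP4+ progenitors summed to 45817 to 50496 in DPP4_pos isoproterenol, 10224 to 10611 in DPP4_pos vehicle, 11295 to 12128 in DPP4_neg isoproterenol and 7941 to 8379 in DPP4_neg vehicle libraries, but they did not move together. With isoproterenol Pi16, Cd55 and Wnt2 rose and Dpp4 and Anxa3 fell in each population, and Anxa3, at 7960 ± 196, made up most of the DPP4_neg vehicle sum.

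Adipocyte markers moved together: 4 of 4 tested fell with isoproterenol in each population, alongside Nr3c1, Fkbp5 and Zbtb16. Among all tested genes 43.3% fell in DPP4_pos and 33.6% in DPP4_neg cells. The adipocyte markers summed to 3632 to 4302 in DPP4_pos isoproterenol and 10711 to 12057 in DPP4_pos vehicle libraries. In DPP4_neg libraries the sums were 11112 to 13304 with isoproterenol and 28827 to 33271 with vehicle. Lep was at 0 in both isoproterenol groups. Endothelial markers were higher in DPP4_pos cells in 5 of 5 tested under either treatment, as Hsd11b1 and Zbtb16 were. The share of all tested genes called higher was 37.4% with isoproterenol and 31.6% with vehicle. Endothelial markers summed to 1097 to 1293 in DPP4_pos and 159 to 211 in DPP4_neg libraries.

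Mural-cell markers summed to 4811 to 5719 in DPP4_pos isoproterenol, 7441 to 8546 in DPP4_pos vehicle, 71466 to 77137 in DPP4_neg isoproterenol and 102665 to 112775 in DPP4_neg vehicle libraries, and these sums were mostly Acta2, at 99429 ± 4485 in DPP4_neg vehicle cells. Of 7 tested, 3 were higher and 4 lower in DPP4_pos than in DPP4_neg cells with isoproterenol, and 1, Notch3, higher and 3 lower with vehicle. Among all tested genes 37.4% were higher and 37.0% lower with isoproterenol, and 31.6% and 35.0% with vehicle. Leukocyte markers summed to 332 to 673 in DPP4_pos isoproterenol, 255 to 419 in DPP4_pos vehicle, 590 to 1093 in DPP4_neg isoproterenol and 225 to 397 in DPP4_neg vehicle libraries. Of 7 tested, Csf1r alone was called with isoproterenol, at 692.8 ± 101 in DPP4_neg isoproterenol and 175.5 ± 21.1 in DPP4_neg vehicle cells. With isoproterenol 39.4% of all tested genes rose and 43.3% fell in DPP4_pos cells, and 32.1% and 33.6% in DPP4_neg cells. The part of these markers in the results was not tested, and in such bulk RNA fewer cells of a type and less RNA per cell cannot be told apart.

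Hormone supply and the second receptor were read beside Nr3c1. Of 9 genes for steroid supply and receptors, Nr3c1 and Hsd11b1 included, 1 rose and 5 fell with isoproterenol in DPP4_pos cells (median log2 -0.68; all tested genes -0.05), and 1 rose and 5 fell in DPP4_neg cells (median -0.75; all tested genes -0.02). Over all tested genes 43.3% fell in DPP4_pos and 33.6% in DPP4_neg cells, and without Nr3c1 and Hsd11b1 the list counts 4 of 7 lower in each. Quantile normalization made the DPP4_pos counts 2 and 4 and that median -0.22. Nr3c2, the mineralocorticoid receptor, which also binds corticosterone, was low: 6.83 ± 4.56 normalized counts in DPP4_pos isoproterenol and 47.7 ± 5.32 in DPP4_pos vehicle cells, and 9.68 ± 3.76 in DPP4_neg isoproterenol and 38.5 ± 7.23 in DPP4_neg vehicle cells (SD, n = 4 each). It fell by a fitted log2 -2.85 ± 0.35 in DPP4_pos cells (limma adjusted p = 1.46e-07) and -1.94 ± 0.35 in DPP4_neg cells (limma adjusted p = 4.89e-05).

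H6pd, which supplies the cofactor that lets the Hsd11b1 enzyme make active hormone, fell by log2 -1.09 ± 0.03 in DPP4_pos and -0.76 ± 0.03 in DPP4_neg cells (limma adjusted p = 1.48e-18 and 2.28e-15). Hsd11b2, which inactivates corticosterone, had means of 5.23 to 12.7 normalized counts in the 4 groups and was not called in any comparison. In DPP4_neg cells its mean was 7.40 with isoproterenol and 12.7 with vehicle. EdgeR on recovered reads called that response (log2 -0.83, adjusted p = 0.0262). So did limma on the compared groups only (-0.78, adjusted p = 0.0338) and with a pseudocount of 5 (-0.54, adjusted p = 0.0459). Its DPP4_pos response was called without the second DPP4_pos isoproterenol or vehicle library (log2 -0.94 and -0.93), and its DPP4_neg response without DPP4_neg isoproterenol library 3 (-0.97) or DPP4_pos isoproterenol library 4 (-0.78). Abcb1a, an efflux pump that can export steroids, rose by log2 1.68 ± 0.15 in DPP4_pos and 1.28 ± 0.15 in DPP4_neg cells (limma adjusted p = 9.32e-10 and 1.56e-07).

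The chaperones that fold and hold the receptor were mostly called higher with isoproterenol. Of 16 tested, Fkbp5 included, 14 rose and 2 fell with isoproterenol in DPP4_pos cells (median log2 0.86), and 11 rose and 2 fell in DPP4_neg cells (median 0.12), where 39.4% and 32.1% of all tested genes rose. The test of the difference of responses called 12 higher and 2 lower in DPP4_pos cells (median 0.53), where 31.6% of all tested genes were higher. Quantile normalization made these 11 and 4 in DPP4_pos cells (median 0.47), 8 and 4 in DPP4_neg cells (median 0.09), and 10 and 4 for the difference (median 0.21). Ppid, a cochaperone that competes with FKBP5 for HSP90, rose by log2 1.26 ± 0.04 in DPP4_pos and 0.63 ± 0.04 in DPP4_neg cells (limma adjusted p = 3.92e-17 and 2.21e-11). Fkbp4, which counters FKBP5 and helps the receptor reach the nucleus, rose by 0.52 ± 0.04 in DPP4_pos cells (limma adjusted p = 1.19e-10), opposite to Fkbp5. In DPP4_neg cells the Fkbp4 value was 0.10 ± 0.04 at the edge of the test (limma adjusted p = 0.0483). The call ended without any 1 of 12 of the 16 libraries: DPP4_pos isoproterenol 1, 3 or 4, DPP4_pos vehicle 2 or 4, DPP4_neg isoproterenol 1, 2, 3 or 4, and DPP4_neg vehicle 1, 2 or 3 (adjusted p up to 0.137). DESeq2 on recovered reads did not call it either (adjusted p = 0.0569). Nor did limma under quantile normalization (log2 0.03, adjusted p = 0.517), without the filter (0.0714), on the compared groups only (0.0726) or with a replicate block (0.0533).

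**Figure D3:**
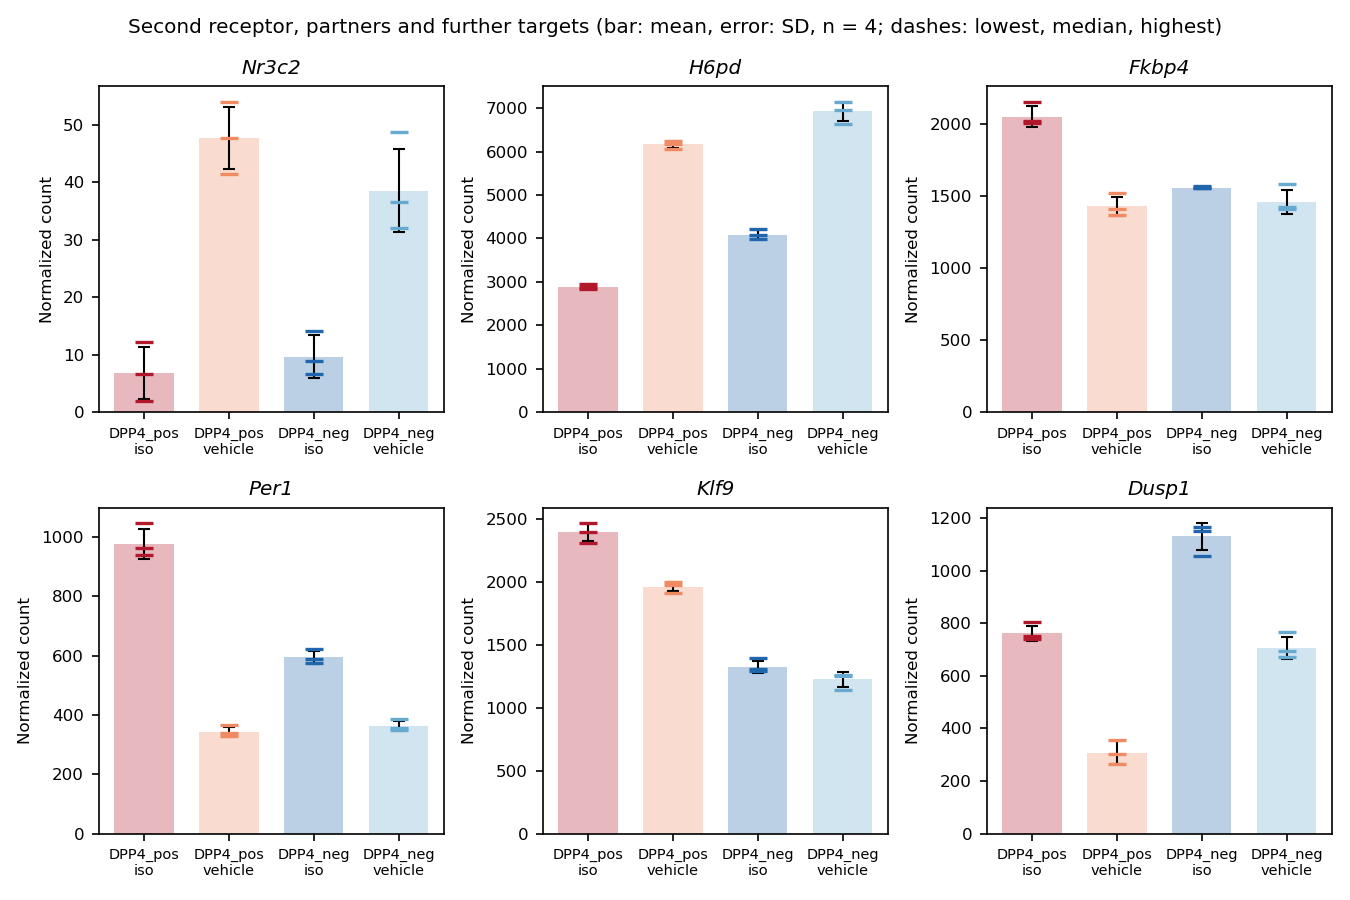
Normalized counts (linear axes from 0) of Nr3c2, H6pd, Fkbp4, Per1, Klf9 and Dusp1 in 4 groups; bars are means, error bars SD (n = 4) and dashes the lowest, median and highest library. Nr3c2 and H6pd are lower with isoproterenol in both populations, and Per1 and Dusp1 higher.

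Receptor coregulators were mixed. Of 15 tested, 8 rose and 4 fell with isoproterenol in DPP4_pos cells, and 7 rose and 7 fell in DPP4_neg cells. Of all tested genes 39.4% rose and 43.3% fell in DPP4_pos cells, and 32.1% and 33.6% in DPP4_neg cells. Under quantile normalization the DPP4_pos counts were 8 and 7. Nrip1, a corepressor of nuclear receptors, rose by log2 0.48 ± 0.08 in DPP4_pos cells and fell by 0.58 on the log2 scale in DPP4_neg cells (limma adjusted p = 7.19e-06 and 9.17e-07).

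Induced targets of the receptor were counted in 2 lists, those also known as cAMP targets and the others. The lists were chosen with earlier results of these data known. A place in the second list does not mean that cAMP leaves a gene unchanged. Of 9 shared targets tested, Sgk1 among them, 7 rose and 2 fell with isoproterenol in each population (median log2 1.51 in DPP4_pos and 0.72 in DPP4_neg cells). Of 32 other induced targets tested, Fkbp5, Tsc22d3 and Zbtb16 among them, 11 rose and 18 fell in DPP4_pos cells (median -0.67), and 10 rose and 18 fell in DPP4_neg cells (median -0.30). Under quantile normalization the 11 in DPP4_pos cells became 7 and that median -0.33. Over all tested genes 39.4% rose and 43.3% fell in DPP4_pos cells, and 32.1% and 33.6% in DPP4_neg cells. No test compared the lists with each other.

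Per1, a clock repressor with elements for both pathways, had a mean of 977.1 ± 49.6 normalized counts in DPP4_pos isoproterenol cells, against 343.5 ± 17.5 in DPP4_pos vehicle cells (SD, n = 4 each; log2 1.51 ± 0.05, limma adjusted p = 5.43e-17). In DPP4_neg cells it had 594.2 ± 21.3 with isoproterenol and 361.6 ± 16.9 with vehicle (log2 0.72 ± 0.05, limma adjusted p = 6.67e-11). Dusp1, a MAP kinase phosphatase, rose by log2 1.32 ± 0.07 and 0.68 ± 0.07 in DPP4_pos and DPP4_neg cells, and Sik1, a kinase that restrains CREB coactivators, by 3.97 ± 0.05 and 2.12 ± 0.05. The 2 shared targets that fell were metabolic. Pdk4, a brake on pyruvate oxidation, fell by log2 -4.25 ± 0.10 in DPP4_pos and -2.56 ± 0.10 in DPP4_neg cells. Pck1, the gluconeogenic enzyme, fell by -1.32 ± 0.30 in DPP4_pos and -1.98 ± 0.30 in DPP4_neg cells. It was low in DPP4_pos cells, at 3.26 and 9.13 normalized counts with isoproterenol and vehicle. With vehicle Pck1 was 7.35-fold lower in DPP4_pos than in DPP4_neg cells (limma adjusted p = 2.55e-08).

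Among the other induced targets the direction varied by gene. Klf9, a zinc-finger target often used as a readout of the receptor, was 2393 ± 66.0 in DPP4_pos isoproterenol and 1963 ± 38.3 in DPP4_pos vehicle cells (log2 0.29 ± 0.04, limma adjusted p = 6.36e-07), but quantile normalization turned that to -0.04. In DPP4_neg cells its log2 difference was 0.11 ± 0.04 (limma adjusted p = 0.0148), and it was not called without the first isoproterenol or the fourth vehicle library of DPP4_neg. Klf9 was higher in DPP4_pos than in DPP4_neg cells with isoproterenol (log2 0.85 ± 0.04) and with vehicle (0.68 ± 0.04).

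Ddit4, an inhibitor of mTORC1, rose by log2 4.07 ± 0.07 in DPP4_pos and 2.93 ± 0.07 in DPP4_neg cells. Errfi1, a brake on EGF receptor signalling, rose by 4.00 ± 0.03 in DPP4_pos and 1.28 ± 0.03 in DPP4_neg cells. Klf15, a metabolic regulator, fell alongside Zbtb16, by log2 -1.83 ± 0.13 in DPP4_pos and -1.17 ± 0.13 in DPP4_neg cells, and so did Pik3r1, the regulatory subunit of PI3 kinase, by -1.87 ± 0.05 and -0.77 ± 0.05. Anxa1, a mediator of anti-inflammatory glucocorticoid action, fell by -1.68 ± 0.04 in DPP4_pos and -1.37 ± 0.04 in DPP4_neg cells.

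**Figure D4:**
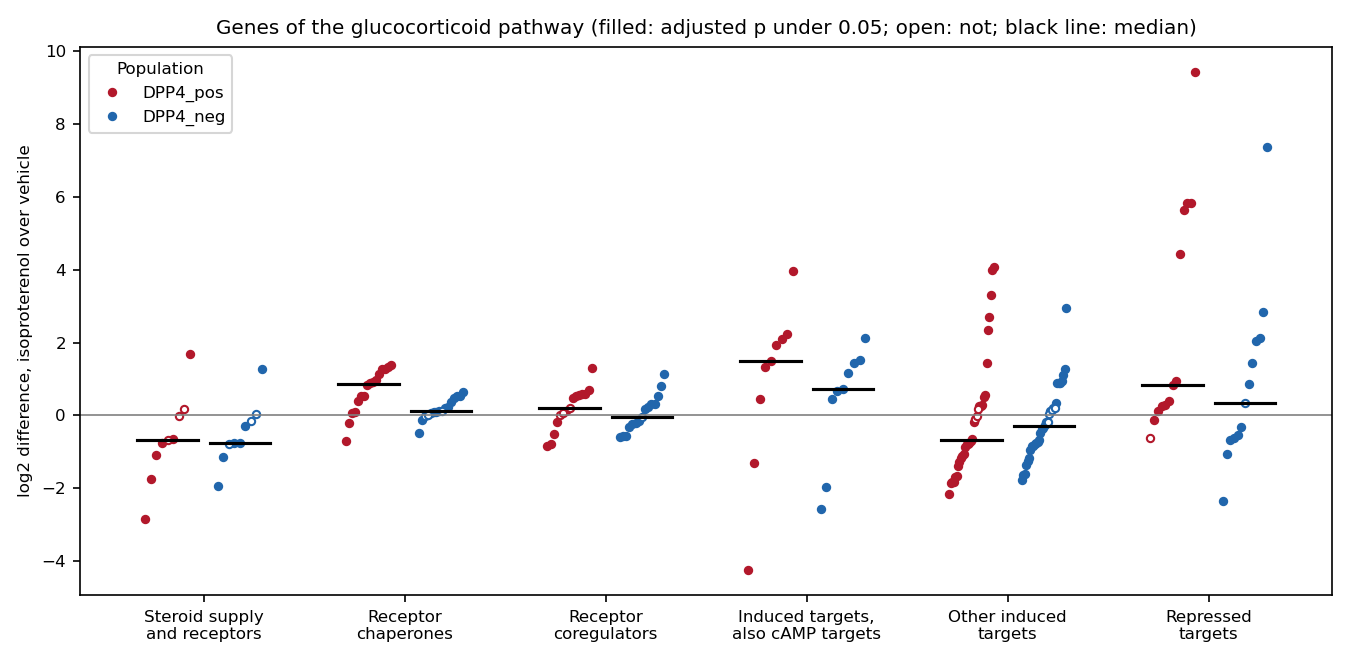
Log2 differences, isoproterenol over vehicle, for each tested gene of 6 pathway lists in DPP4_pos (red) and DPP4_neg (blue) cells; filled points passed an adjusted p of 0.05 (limma) and black lines are list medians. In DPP4_pos cells the median of targets listed as shared with cAMP is 1.51 and that of the other induced targets -0.67 (-0.33 under quantile normalization).

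Genes that the receptor represses, mostly inflammatory, were mostly called higher with isoproterenol in DPP4_pos cells. Unlike the induced targets, they were not split by known cAMP targets, and why they rose was not tested. Of 18 listed, 13 passed the filter on low values and were tested, and a gene high in 1 group alone could pass. Of these 13, 11 rose and 1 fell with isoproterenol in DPP4_pos cells (median log2 0.84). In DPP4_neg cells 6 rose and 6 fell (median 0.34). Quantile normalization made the DPP4_pos counts 8 and 3. Without the filter, the 18 gave 11 and 1 in DPP4_pos cells (median 0.54) and 7 and 6 in DPP4_neg cells (median -0.31). Among all tested genes 39.4% rose and 43.3% fell in DPP4_pos cells, and 32.1% and 33.6% in DPP4_neg cells. The test of the difference of responses called 11 higher and 1 lower in DPP4_pos cells, against 31.6% and 31.0% of all tested genes. Il6, an inflammatory cytokine, had 3012 ± 349 normalized counts in DPP4_pos isoproterenol and 58.9 ± 4.19 in DPP4_pos vehicle cells, against 591.2 ± 83.8 and 133.9 ± 12.6 in DPP4_neg isoproterenol and vehicle cells (SD, n = 4 each). Its log2 change was 5.65 ± 0.09 in DPP4_pos and 2.13 ± 0.09 in DPP4_neg cells (limma adjusted p = 1.62e-22 and 9.59e-15). Fst, the activin antagonist, rose by 0.93 ± 0.05 in DPP4_pos cells and fell by 2.36 on the log2 scale in DPP4_neg cells (limma adjusted p = 2.6e-13 and 4.45e-20).

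Relatives and partners of the 6 genes gave values of their own. Tsc22d1, of the same leucine-zipper family as Tsc22d3, rose by log2 1.74 ± 0.03 in DPP4_pos and 0.39 ± 0.03 in DPP4_neg cells (limma adjusted p = 2.4e-22 and 1.44e-10), where Tsc22d3 was not called. Ndrg1, a protein whose phosphorylation reports SGK1 activity, rose by 1.49 ± 0.07 in DPP4_pos and 2.08 ± 0.07 in DPP4_neg cells (limma adjusted p = 3.24e-14 and 1.99e-16), and stood higher in DPP4_pos than in DPP4_neg cells by 2.01 ± 0.07 with isoproterenol and 2.60 ± 0.07 with vehicle, opposite to Sgk1. Of 7 SGK1 substrates and partners tested, 6 were higher and 0 lower in DPP4_pos cells under either treatment, where 37.4% of all tested genes were higher with isoproterenol and 31.6% with vehicle. Quantile normalization made the isoproterenol counts 4 and 1.

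The 6 genes did not share 1 pattern across libraries. As a description, each gene's log2 values were centred over the 16 libraries and the root mean square difference between genes taken. The values were not scaled to each gene's spread, so genes that change little lie near each other even where their patterns differ. The nearest pair was Fkbp5 and Tsc22d3 at 0.36, and the farthest Zbtb16 and Sgk1 at 1.53; Nr3c1 lay 0.50 from both Zbtb16 and Fkbp5. Among all tested genes with a mean of at least 50, the nearest to Nr3c1 were B3galnt1 at 0.0746, Mst1r at 0.112 and Pcdh18 at 0.113. Rsrc1 was nearest to Fkbp5 at 0.0540, Polr2i to Tsc22d3 at 0.0863 and Pcolce to Hsd11b1 at 0.0674. Zbtb16 and Sgk1 had no neighbour as close, with Met nearest to Zbtb16 at 0.185 and Plec nearest to Sgk1 at 0.126.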

How the data were processed

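RNA of 16 libraries was sequenced from kits that, per the labels' protocols, started from 500 ng of total RNA; the labels name no strand setting. Per the submitters' processing notes, the builds named are GRCm38 and mm10, and the tools named include DESeq2 1.6.3, the aligner HISAT2 2.0.1, the read counter featureCounts 1.4.6 and the adapter trimmer Trim Galore 0.4.1. Neither their settings nor their order is stated. The authors deposited 1 table of normalized counts, a library-scaled signal per gene. Every value above 0 (280334 values, 100.0% within 0.001) was a whole multiple of the value of 1 read, so reads were recovered and used for edgeR and DESeq2. Of 27179 entries, 4224 were 0 everywhere, 958 had no symbol and 26 symbols turned into dates were restored.

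Genes with at least 10 normalized counts in at least 4 libraries (14005) were tested with limma 3.58.1 (trend; R 4.3.3) on log2(value + 1), 1 fit over 4 groups, and adjusted over all genes. No batch is given. Alternatives were edgeR 4.0.16 and DESeq2 1.42.0 on recovered reads, TMM scaling, quantile normalization, pseudocounts of 0.5 and 5, no filter, fits of the compared groups only, a replicate block, and leaving out each library. Only the limma fit was tested on simulated data, for a single comparison with far fewer genes changed than were called here. That test covers neither edgeR nor DESeq2, nor the scaling of libraries when most genes change. No other gene's annotated exons (GENCODE, GRCm38) overlap those of the 6 genes; without strand, antisense reads cannot be told apart.

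The 6 genes and the pathway and marker lists were chosen with earlier results of these data known. Besides the 6 genes, Nr3c2, Hsd11b2, H6pd, Fkbp4, Per1, Klf9 and Dusp1 and called list genes with an absolute log2 of at least 1 (at most 4 per list, direction and comparison) could be named; genes whose near-identical copies could share reads were not. Marker genes named singly were chosen after their values were seen. Promoter windows came from RefSeq on GRCm38.p6; windows holding exon bases are not printed.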

Additional observations from a re-analysis of the deposited data

Results flagged for a closer look

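Among 52 sets of 4 libraries (the 6 genes, Nr3c2, Hsd11b2, H6pd, Fkbp4, Per1, Klf9 and Dusp1 in each group), 8 held a library whose gap to its nearest neighbour took more of the group's range than Dixon's critical share at the 95% level. Chance alone flags about 1 group in 20. Of the 6 genes, the share was 0.837 for Nr3c1 in DPP4_pos vehicle library 4, 0.896 for Fkbp5 in DPP4_pos isoproterenol library 3 and 0.840 for Sgk1 in DPP4_pos isoproterenol library 4. It was 0.845 for Fkbp4 in DPP4_pos isoproterenol library 2, 0.911 in DPP4_neg isoproterenol library 1 and 0.858 in DPP4_neg vehicle library 4. Klf9 in DPP4_neg vehicle library 4 gave 0.964 and Per1 in DPP4_neg vehicle library 1 gave 0.846.

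Responses that differed between the populations (isoproterenol log2 change in DPP4_pos minus that in DPP4_neg, called by limma) were -0.61 for Nr3c1 and -0.20 for Fkbp5. For hormone supply and chaperones they were -0.33 for H6pd, 0.43 for Fkbp4 and 1.003 for Hspa4, and for the coregulator Nrip1 1.06. Among targets shared with cAMP they were 0.79 for Per1, 0.64 for Dusp1, 1.86 for Sik1 and -1.69 for Pdk4. Other induced targets gave 0.17 for Klf9, 2.72 for Errfi1, 2.35 for Mt2, 1.79 for Mt1, 1.45 for Glul, -1.30 for Lpin1, -1.21 for Mertk, -1.15 for Sesn1 and -1.10 for Pik3r1. Repressed targets gave 3.79 for Ptgs2, 3.52 for Il6, 3.29 for Fst and 3.01 for Cxcl1, and the relatives of Tsc22d3 gave 1.71 for Tsc22d2 and 1.35 for Tsc22d1.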

How the results depend on the processing

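Nearly all results kept direction and side of the threshold: 702 of 744 alternative values of the 6 genes and 3509 of 3548 of the other named genes. These shares overstate stability. Most of the other named genes were picked because they were called with an absolute log2 of at least 1. For a comparison between groups, leaving out a library of a group not compared cannot change the log2 difference. Every call that Nr3c1 fell, and fell further in DPP4_pos cells, that Fkbp5 and Zbtb16 fell and that Sgk1 rose held under all alternatives run. Changes among the 6 genes lay in small differences. With DESeq2 on recovered reads, Fkbp5 was not called between populations with isoproterenol (log2 -0.16) or in the difference of responses (-0.19). EdgeR on recovered reads called Tsc22d3 in DPP4_neg cells (0.16) and its difference of responses (-0.23), and turned that of Sgk1 to -0.028; TMM scaling turned it to -0.040. Quantile normalization turned the differences of responses of Sgk1 (-0.085), Zbtb16 (0.058) and Klf9 (-0.10), the DPP4_pos responses of Hsd11b1 (0.018), Tsc22d3 (0.016) and Klf9 (-0.044), and the population difference of Nr3c1 with isoproterenol (-0.068), and called the DPP4_neg responses of Hsd11b1 (0.16) and Tsc22d3 (0.17). The cause was not tested.

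Leaving out 1 library at a time gave log2 ranges of 0.059 to 0.15 for Nr3c1 between populations with isoproterenol, -0.0022 to 0.059 for Fkbp5 between populations with vehicle and -0.25 to -0.17 for its difference of responses. For Tsc22d3 the range was -0.22 to -0.15 between populations with vehicle, 0.067 to 0.21 for the DPP4_neg response and -0.056 to 0.016 for the DPP4_pos response. It was -0.0078 to 0.11 for the Hsd11b1 response in DPP4_neg cells. The difference of responses ranged from -0.16 to 0.061 for Zbtb16, from -0.029 to 0.067 for Sgk1 and from -0.16 to 0.42 for Hsd11b2, and Fkbp4 between populations with vehicle from -0.060 to 0.0089.

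Genes called among the 14005 numbered 11581 for isoproterenol in DPP4_pos cells, 9199 in DPP4_neg cells, 10418 between populations with isoproterenol, 9326 with vehicle and 8765 for the difference of responses, and stayed within 1.5 times of these under every alternative. EdgeR on recovered reads called 11581, 9543, 10242, 9833 and 8773 in that order. Replicate numbers did not pair the libraries: of 24 same-numbered correlations of deviations, from -0.231 to 0.131, 1 was over 0.1. With the replicate number as a block 11612, 9295, 10451, 9393 and 8854 genes were called. A fit of the compared groups only gives no value for the difference of responses. Depth limits genes with few reads most, such as Zbtb16, Nr3c2, Pck1 and Hsd11b2, the last at 5.23 normalized counts in DPP4_pos isoproterenol cells.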
